A study of Danio rerio with 60 samples.

Results

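The RNA levels of 6 genes linked to the cone light response were followed in zebrafish larvae exposed to raloxifene or resorcinol. The light response itself was not measured. The genes were gnb3b (ENSDARG00000002696), GRK7 (ENSDARG00000055534), PDC (ENSDARG00000017634), CNGA3 (ENSDARG00000012297), KCNV2 (ENSDARG00000062906) and RDH8 (ENSDARG00000099217). They are 6 of the 27281 genes in the raloxifene table and of the 27488 in the resorcinol table, and all 6 passed the filter on low levels in both. All but KCNV2 were chosen because they differed between 405 µM resorcinol and its control in an earlier analysis of these libraries, and KCNV2 was chosen because it differed across the resorcinol doses. Their resorcinol values against control, and all of those of KCNV2, are therefore given as a description. The 30 raloxifene libraries took no part in that choice, nor did the contrast of 40.5 µM with the lower resorcinol doses for the 5 genes other than KCNV2, though the results of both were known. The error of that contrast was estimated from all 30 resorcinol libraries, so its p-values are not independent of the choice.

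Each of the 60 libraries was made from 20 whole larvae of the AB/Tub background, pooled. Exposure ran from 72 until 120 hours after fertilization, in HEPES-buffered E3 at 28 °C. Raloxifene, a selective estrogen receptor modulator, was dosed in steps of 20.1, 2.01, 0.201, 0.0201 and 0.00201 µM, with control larvae in 0.5% carrier. Resorcinol, a phenol that inhibits thyroid peroxidase, was dosed at 405, 40.5, 4.05, 0.405 and 0.0405 µM, with control larvae in 1% carrier. All 12 groups held 5 libraries, the carrier is not named in the labels, and the larvae carried no transgene that the labels mention. The highest dose of each compound is marked EC20 and its control CC20, and the dosed resorcinol samples were grouped by their description because their titles carry raloxifene's short name. The design text states that the dilutions of each drug were set against its vehicle control.

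In a cone, light activates an opsin, the opsin activates the G protein transducin, and transducin switches on a phosphodiesterase that lowers cyclic GMP. Cyclic nucleotide-gated channels in the outer segment then close and the cell hyperpolarizes, while kinases, arrestin and calcium-binding proteins shut the cascade off. The bleached chromophore is reduced and recycled by retinoid enzymes, and potassium channels of the inner segment shape the voltage response. gnb3b encodes the beta subunit of cone transducin, and PDC is phosducin, which binds the beta and gamma subunits of transducin. GRK7 is the kinase of bleached cone opsins. CNGA3 is the alpha subunit of the cone cyclic nucleotide-gated channel. KCNV2 encodes a modulatory potassium channel subunit of the inner segment. RDH8 reduces all-trans retinal in the outer segment. Several of these roles are best known from mammals, and the capital symbols are those of human genes shared by zebrafish duplicates.

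Levels are the deposited normalized counts, reads per gene divided by 1 factor per library, and levels of different genes are not compared because no transcript lengths were used. A change is a difference in log2(normalized count + 1), which shrinks changes of low genes, while a single library at 0, as for RDH8, can enlarge them. Raloxifene libraries held 7.44 to 10.98 M reads and resorcinol libraries 7.78 to 12.1 M, apart from 405 µM replicate 1 with 30.7 M. A call is a limma adjusted p under 0.05 over all genes tested. A blocked fit, with a term for each replicate number, is given where it changes a call, since libraries of the same number varied together. Whether the pools of a group stem from different spawnings is not stated. Without the block, p-values cover the spread from pool to pool within a group. With it, they cover what is left of that spread once differences between replicate numbers are removed. Because whole larvae were sequenced, fewer cones and less of an RNA per cone cannot be told apart. Of the cone opsin list, 7 genes were in the tables and none was at 0 in every library. The libraries labelled resorcinol 4.05 µM replicate 3 and 40.5 µM replicate 3 each stood at the KCNV2 level of the other dose. Whether their labels are right or exchanged is not known, and every mean and contrast of these 2 doses includes them as labelled unless stated.

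Across the resorcinol doses, gnb3b, GRK7, PDC, CNGA3 and RDH8 had their highest group mean at 405 µM and their second highest at 40.5 µM, while KCNV2 had its lowest means there. The group means of CNGA3 were 54.2 ± 16.5 (SD, n = 5) in controls, 51.3 ± 10.8 at 0.0405 µM, 47.8 ± 14.7 at 0.405 µM, 67.6 ± 13.5 at 4.05 µM, 90.8 ± 25.6 at 40.5 µM and 108.9 ± 50.0 at 405 µM. Leaving out 405 µM replicate 1, the deepest library, put its 405 µM mean at 90.0 ± 30.9 (SD, n = 4), below that at 40.5 µM. For GRK7 it was then 123 ± 50.3, against 115.91 ± 25.85 at 40.5 µM, or 124 ± 21.1 without replicate 3 there. The 405 µM means of gnb3b, PDC and RDH8 stayed the highest. Replicate 1 was kept in the other groups. Neighbouring groups in the order of means overlapped in their intervals of mean ± SD for all 6 genes. Without replicate 3 of both doses, the intervals of KCNV2 at 4.05 and 40.5 µM, 59.6 ± 21.9 and 5.99 ± 2.29 (SD, n = 4), did not overlap. For 405 µM against control, 0 of the 6 genes were called without the block and 5 with it, all but KCNV2. Over all 19583 genes, 0.0306% were called without the block and 0.327% with it. For 40.5 µM against control, 0 were called without the block and KCNV2 with it, against 0.00511% and 0.0664% of all genes. The 405 µM contrast was used to choose 5 of the genes, the 40.5 µM contrast shares its controls, and KCNV2 was chosen across the doses. Nothing is therefore read from the counts.

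**Figure D1:**
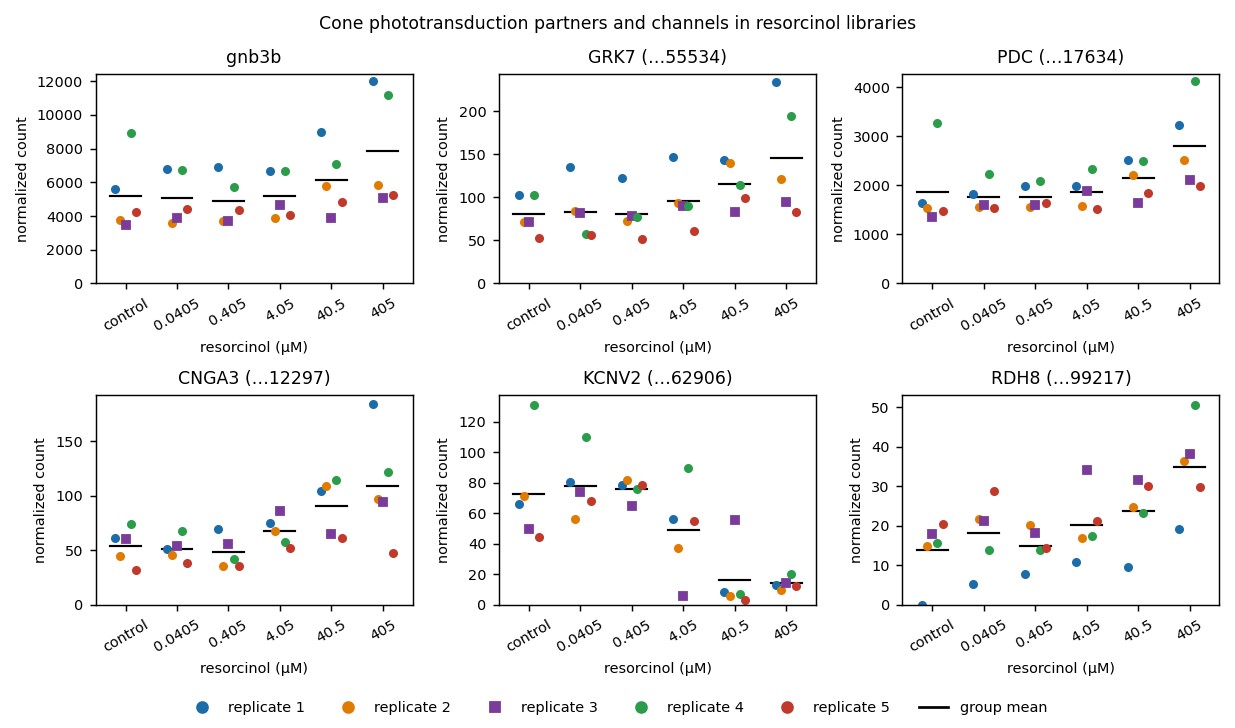
Normalized count of each gene (y axis, from 0) in each resorcinol group (x axis, µM), with 1 point per library coloured by replicate number, squares for replicate 3, and a line at the mean of 5. KCNV2 is at 9.73 to 20.2 at 405 µM, below the controls at 44.7 to 131, and in 1 of 5 libraries at 40.5 µM and 1 of 5 at 4.05 µM, both replicate 3, it lies far from the rest of its group.

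The transducin partners were high in the same libraries. gnb3b stood at 5610, 3748, 3480, 8944 and 4211 in control replicates 1 to 5 and at 11996, 5834, 5049, 11165 and 5245 at 405 µM. Each 405 µM library was above the control of the same number, by 1.25 to 2.14 times. The groups overlapped, since control replicate 4, the highest, and control replicate 1, at 5610, were both above the lowest 405 µM library, at 5049. PDC stood at 1645, 1539, 1366, 3275 and 1479 in controls and at 3223, 2523, 2104, 4134 and 1993 at 405 µM. It was higher in 5 of 5 pairs, by 1.26 to 1.96 times, and the highest control was again replicate 4. The log2 change was 0.58 (SE 0.12 with the block) for gnb3b and 0.61 (SE 0.11) for PDC.

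The kinase GRK7 stood at 103.3, 71.7, 70.9, 102.5 and 52.9 in controls and at 234, 121, 94.1, 194 and 82.5 at 405 µM. At 405 µM, 3 of the 5 libraries were above every control, and 5 of 5 were above their same-numbered one. The channel gene CNGA3 stood at 61.0, 44.3, 60.3, 73.9 and 31.5 in controls and at 184, 97.3, 94.1, 121 and 47.4 at 405 µM. Of these, 4 of 5 were above every control, and replicate 5 was the lowest library of both groups. The log2 change was 0.77 (SE 0.16 with the block) for GRK7 and 0.92 (SE 0.19) for CNGA3.

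The retinal reductase gene RDH8 ENSDARG00000099217 was sparsely read. It stood at 0, 14.8, 18.0, 15.5 and 20.3 in controls and at 19.2, 36.3, 38.2, 50.5 and 29.9 at 405 µM. The 0 in control replicate 1 allows a level of up to 3.73, the value of 3 reads in that library, an interval for counting error only. Replicate 1 was also the lowest library of RDH8 at every resorcinol dose. The log2 change of 1.76 (SE 0.36 with the block) became 0.98 with a pseudocount of 10. Without control replicate 1 it was 0.93, in a fit without the block. That fit kept 405 µM replicate 1, at 19.2 the lowest library of its group, so this pair was broken.

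The potassium channel subunit KCNV2 went the other way. It stood at 66.0, 71.7, 49.7, 131 and 44.7 in controls and at 13.2, 9.73, 14.5, 20.2 and 12.4 at 405 µM. The groups did not overlap, and each 405 µM library held 0.136 to 0.292 of its same-numbered control. Over all genes, 0.158% were lower without overlap in this comparison. The log2 change was -2.22 (SE 0.51 with the block).

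In the middle doses KCNV2 split by library. It stood at 80.5, 56.1, 74.2, 109.9 and 68.4 at 0.0405 µM and at 78.5, 82.2, 64.5, 75.8 and 78.6 at 0.405 µM, which is the level of the controls. At 4.05 µM it stood at 56.1, 37.4, 5.70, 89.8 and 55.1, and at 40.5 µM at 8.27, 5.50, 55.8, 7.17 and 3.01. Replicate 3 was thus the lowest library at 4.05 µM and the highest at 40.5 µM, each outside the range of the other 4 libraries of its group. Without it the mean at 4.05 µM was 59.6 ± 21.9 (SD, n = 4) and that at 40.5 µM 5.99 ± 2.29 (SD, n = 4). The 5.70 lies within the range of the other 4 libraries at 40.5 µM and the 55.8 within that of the other 4 at 4.05 µM. The other 5 genes did not share this pattern in full. CNGA3 was at 85.5 in replicate 3 at 4.05 µM, the highest of its group, and at 65.0 in replicate 3 at 40.5 µM, the second lowest. GRK7, gnb3b and PDC were each lowest in replicate 3 at 40.5 µM, at 83.2, 3883 and 1643, while at 4.05 µM it lay inside the range of the other 4 libraries for all 3, at 90.3, 4677 and 1889. RDH8 was highest in replicate 3 at both doses, at 34.2 and 31.5. At 40.5 µM against the lower doses, the others called without the block were opn1mw2, guca1d and GUCA1A ENSDARG00000100747. Their lowest levels at 4.05 µM were 66.5, 7.60 and 23.8, beside medians of 579, 29.4 and 75.2. Their highest at 40.5 µM were 383, 32.5 and 84.2, beside medians of 58.7, 6.42 and 19.3. Without replicate 3 of both doses, all genes called in that contrast went from 4 to 15, and from 40 to 70 with the block.

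The contrast of 40.5 µM with the mean of 0.405 and 0.0405 µM uses neither the 405 µM nor the control libraries. With the block CNGA3 rose at 40.5 µM, to 103.9, 109.2, 65.0, 115 and 61.2 from 51.1, 45.3, 54.1, 67.4 and 38.5 at 0.0405 µM and 69.5, 35.8, 56.0, 42.2 and 35.7 at 0.405 µM. At 40.5 µM, 3 of the 5 libraries were above all 10 at the lower doses, and in 5 of 5 replicate numbers 40.5 µM was above the mean of the pair. The log2 change was 0.85 (95% interval 0.51 to 1.19 with the block, limma adjusted p = 0.0157), which is 1.80-fold. Without the block the adjusted p was 1.00, and the blocked call was lost without replicate 1, 2, 4 or 5 (adjusted p = 0.117, 0.327, 0.107 and 0.0976). It was kept without replicate 3 (log2 1.00, limma adjusted p = 0.00757). Of the 6 genes, 1 was called without the block, KCNV2, and 2 with it, against 0.0204% and 0.204% of all genes tested.

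The other 4 genes that were high at 405 µM were not called at 40.5 µM. GRK7 stood at 142.9, 140.3, 83.2, 114 and 99.3 there, against a mean of 81.7 ± 27.5 over the 10 libraries of the lower doses. Its log2 difference was 0.53 (95% interval 0.25 to 0.82 with the block, limma adjusted p = 0.147). PDC stood at 2525, 2208, 1643, 2490 and 1847 against 1763 ± 256, and gnb3b at 8981, 5764, 3883, 7074 and 4848 against 4977 ± 1399. Their log2 differences were 0.27 (interval 0.08 to 0.47, limma adjusted p = 0.462) and 0.28 (interval 0.08 to 0.49, limma adjusted p = 0.501). RDH8 stood at 9.45, 24.8, 31.5, 23.3 and 30.1 against 16.5 ± 7.03, a log2 difference of 0.53 (interval -0.11 to 1.17, limma adjusted p = 0.723). All 4 were above the mean of the lower doses in 5 of 5 replicate numbers, and all 4 overlapped with them. With the block, only the interval of RDH8 includes 0. These intervals are not adjusted for the number of genes, and intervals without the block are not given here. Without the block none of the 4 was called either. Without replicate 3 the blocked differences were 0.66 for GRK7, 0.33 for PDC, 0.35 for gnb3b and 0.50 for RDH8, none of them called by limma. For KCNV2 the log2 difference was -2.91 (SE 0.44 with the block) and -3.56 (SE 0.20) without replicate 3, given as a description.

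Each of the 6 genes has at least 1 further zebrafish gene of the same name, and none of those copies passed the test. The copies, listed under the symbols GNB3, GRK7, PDC, CNGA3 and KCNV2, plus 2 further genes for RDH8, make 7 genes, and 0 of 7 were called by limma in any comparison, with or without the block. The CNGA3 copy ENSDARG00000070726 was at 421 ± 93.1 in controls, 302 ± 81.6 at 40.5 µM and 278 ± 57.1 at 405 µM, the opposite order to ENSDARG00000012297. The GRK7 copy ENSDARG00000020602 was at 4661 ± 1728, 3389 ± 565 and 4188 ± 1176, and the KCNV2 copy ENSDARG00000076644 at 63.9 ± 25.4, 62.1 ± 15.5 and 81.6 ± 27.3. Of the further RDH8 genes, ENSDARG00000028048 was at 375 ± 94.3, 321 ± 25.5 and 362 ± 100. ENSDARG00000105060 was at 244 ± 118, 259 ± 95.8 and 303 ± 155. At 40.5 µM against the lower doses, the log2 change was -0.33 (SE 0.15) for the CNGA3 copy, -0.36 (SE 0.11) for the GRK7 copy and 0.08 (SE 0.16) for the KCNV2 copy, none of them called by limma with the block. Reads from copies with near-identical sequence could be divided between them, and sequences were not compared.

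**Figure D2:**
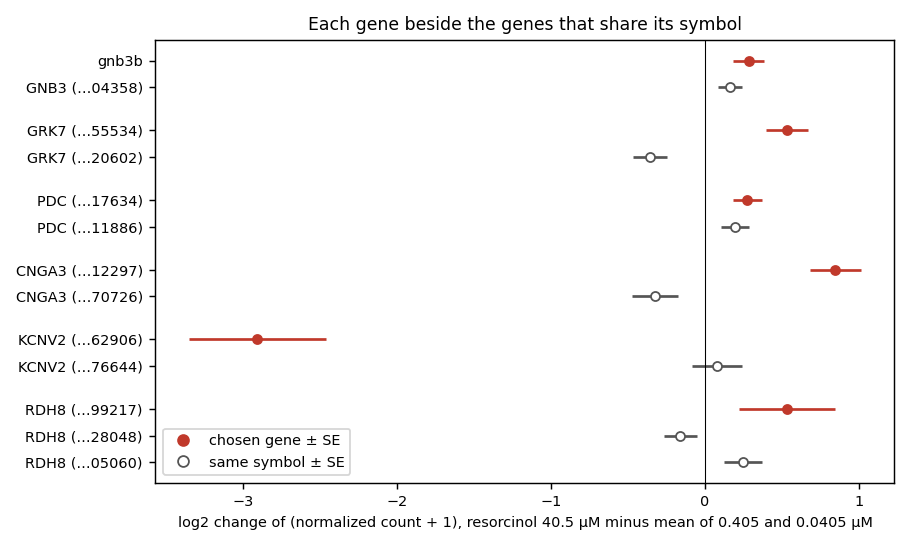
Change at 40.5 µM resorcinol from the mean of 0.405 and 0.0405 µM (x axis, log2 of normalized count + 1) for each chosen gene (filled) and each gene of the same name (open; GNB3 for gnb3b), with bars of 1 SE from the fit with the replicate block. CNGA3 and GRK7 lie above 0 with their copies below 0, gnb3b and PDC lie beside their copies, and KCNV2 lies at -2.91 with its copy at 0.08.

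The ratio of each gene to its copy within a library was computed for 40.5 µM and for the same 2 lower doses. The ratios were chosen after these levels had been seen, so they are a description. A permutation within replicate numbers was computed for all but KCNV2, and its p-values are not read as a test. Relative to its copy, CNGA3 differed by a log2 of 1.18 (SD 0.56, n = 5 replicate numbers, higher in 5 of 5), which is 2.26-fold, and GRK7 by 0.89 (SD 0.46, n = 5, higher in 5 of 5), which is 1.86-fold. RDH8 differed by 0.69 (SD 0.28, n = 5, higher in 5 of 5) relative to ENSDARG00000028048 and by 0.29 (SD 0.15, n = 5, higher in 5 of 5) relative to ENSDARG00000105060. For gnb3b and PDC the ratio differed by 0.12 (SD 0.25, n = 5, higher in 3 of 5) and 0.08 (SD 0.20, n = 5, higher in 4 of 5), less than the spread between replicate numbers. The KCNV2 ratio was lower by 2.99 on the log2 scale (SD 1.48, n = 5, lower in 5 of 5). Without replicate 3 the difference was 1.36 for CNGA3 and 1.02 for GRK7.

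Under raloxifene none of the 6 genes was called by limma at any dose, with or without the block. None was called by edgeR or DESeq2 on the recovered reads, both run without the block only. At 20.1 µM limma called 0.0936% of all 19241 genes without the block and 1.26% with it. At 2.01, 0.201, 0.0201 and 0.00201 µM it called 0% without the block (unadjusted p was under 0.05 for 164, 112, 60 and 222 genes) and 0.0208%, 0.0156%, 0% and 0.0987% with it. With the block, unadjusted p was under 0.05 for PDC and CNGA3 at 20.1 µM and for GRK7 and CNGA3 at 0.00201 µM, as it was for 2363 and 2678 of all 19241 genes. Treated and control libraries overlapped for all 6 genes at all 5 doses. Of all genes, 0.561% were without overlap at 20.1 µM. At 2.01, 0.201, 0.0201 and 0.00201 µM it was 0.13%, 0.0936%, 0.0468% and 0.151%.

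**Figure D3:**
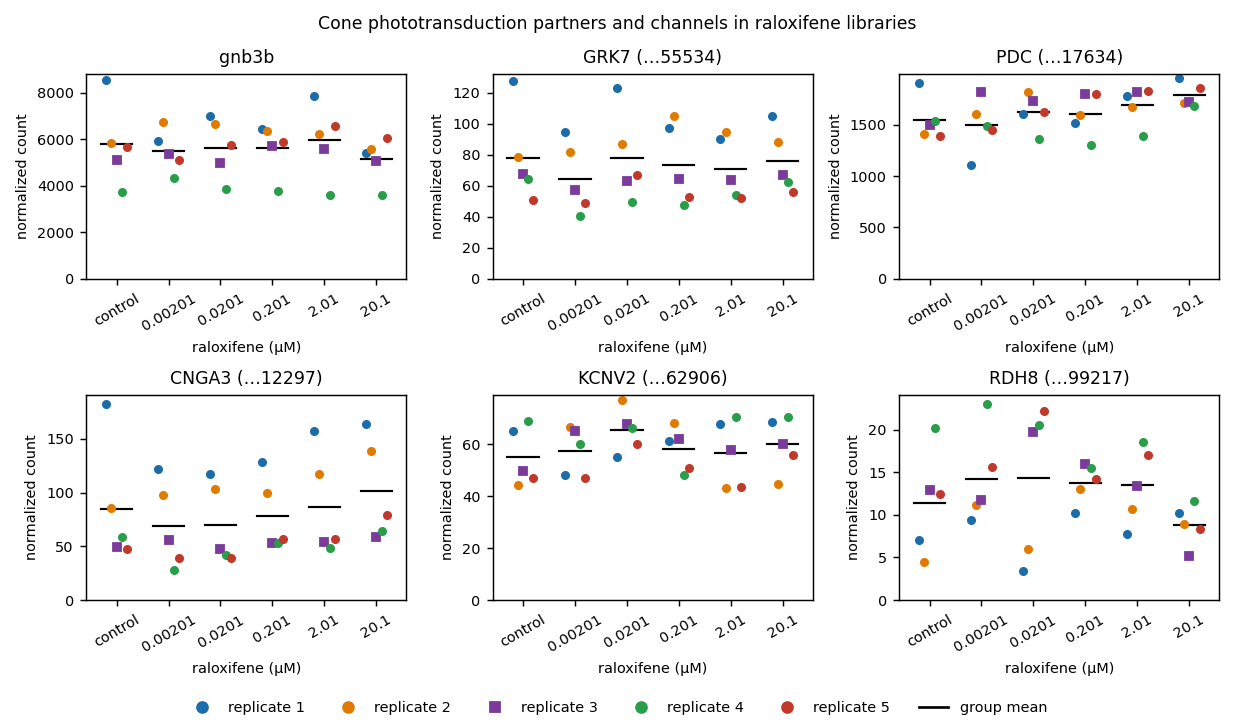
Normalized count of each gene (y axis, from 0) in each raloxifene group (x axis, µM), with 1 point per library coloured by replicate number, squares for replicate 3, and a line at the mean of 5. KCNV2 spans 42.9 to 77.1 over all 30 libraries, and replicate 1 of CNGA3 lies at 117 to 183 while replicates 3 to 5 lie at 27.7 to 79.5.

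At 20.1 µM raloxifene, KCNV2 stood at 68.3, 44.7, 60.1, 70.4 and 55.8 against 65.2, 44.2, 49.6, 69.0 and 47.0 in controls. The log2 difference was 0.12, with a 95% interval of -0.19 to 0.44 in the fit with the block. CNGA3 stood at 164, 139, 58.4, 64.6 and 79.5 against 183, 85.2, 49.6, 58.9 and 47.0, higher in 4 of 5 pairs. Its log2 difference was 0.33 (interval 0.03 to 0.63, limma adjusted p = 0.350 with the block). PDC stood at 1950, 1715, 1722, 1681 and 1856 against 1906, 1413, 1494, 1539 and 1386, higher in 5 of 5 pairs. Its log2 difference was 0.21 (interval 0.01 to 0.42, limma adjusted p = 0.383 with the block).

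The remaining 3 genes gave intervals that include 0 at 20.1 µM. GRK7 was at 75.6 ± 20.3 against 77.6 ± 29.6 in controls, a log2 difference of -0.01 (interval -0.25 to 0.24 with the block). gnb3b was at 5145 ± 924 against 5772 ± 1763, a difference of -0.14 (interval -0.31 to 0.04). RDH8 was at 8.86 ± 2.39 against 11.4 ± 6.08, a difference of -0.22 (interval -0.84 to 0.40). These intervals do not show that the genes were unaffected. The responses to the 2 compounds were not tested against each other, since the doses differ and the tables were normalized separately.

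The share of the variance that went with the replicate number differed between the genes. In the raloxifene libraries it was 83.9% for CNGA3, 85.5% for GRK7 and 82.8% for gnb3b, against 8.95%, 4.81% and 3.31% for the dose group. It was lower for RDH8, KCNV2 and PDC, at 47.2%, 22.3% and 18.9%, against 12.9%, 11.6% and 22.8% for the dose group. Over all genes tested the shares were 77.2% for the number and 5.53% for the dose group. CNGA3 averaged 145 ± 26.6 in the 6 raloxifene libraries numbered 1 and 49.2 ± 13.2 in the 6 numbered 4. RDH8 ran the other way, at 8.02 ± 2.59 in those numbered 1 and 18.3 ± 4.11 in those numbered 4. In the resorcinol libraries the number accounted for 68.3% of the variance of gnb3b, 49.4% of GRK7, 47.9% of PDC, 47.0% of RDH8, 29.5% of CNGA3 and 3.74% of KCNV2. The dose group accounted for 20.7%, 33.4%, 36.1%, 28.3%, 50.4% and 67.8% of them. The genes were chosen on resorcinol dose differences, so these shares are a description and are not set against those of all genes. What the number stands for is not given in the labels.

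The 6 genes did not vary as 1 unit. Over the 30 resorcinol libraries gnb3b and PDC had a Pearson correlation of 0.914 in log2 level, and CNGA3 and GRK7 one of 0.818, while KCNV2 and CNGA3 had -0.591. Over the 30 raloxifene libraries the same pairs had 0.413, 0.892 and 0.06. These values describe libraries that share groups and replicate numbers. By the lower of the 2 correlations, the genes most like gnb3b among 19058 were syt5b, GNAT2 (the alpha subunit of cone transducin) and GNGT2 ENSDARG00000103543 (the gamma subunit), at 0.899 to 0.955. For PDC they were PRPH2 (peripherin of outer segment discs), unc119a2 and CAMK1G. For CNGA3 they were GRK7 itself, lrmp and cabp2a. For GRK7 they were MTMR10, zgc:154093 and GABRA6. For KCNV2 the first was GUCA1A ENSDARG00000100747, a guanylate cyclase activator, at 0.907 over the resorcinol and 0.538 over the raloxifene libraries, ahead of ABCA4 ENSDARG00000062661 and 5S_rRNA ENSDARG00000109266. For RDH8 they were crygm2d9 (a lens crystallin), atad1a and TRIM2, at 0.728 to 0.768.

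Among the other genes of the pathway, those called at 40.5 µM against the 2 lower doses fell. In the cone cascade list, 2 of 35 other genes fell without the block, and 4 of 35 fell and 0 rose with it, against 0.0204% and 0.204% of all genes called. The median log2 change was 0.03, with 20 of 35 above 0. The 4 were the guanylate cyclase activators GUCA1A ENSDARG00000100747 (log2 -1.93, limma adjusted p = 0.00211 with the block), guca1d (-1.99) and guca1g (-1.71), and pde6ha (-1.04), an inhibitory phosphodiesterase subunit of cones. Without replicate 3 of 4.05 and 40.5 µM, 3 fell without the block and 5 with it, the additional one being cngb3.2 (log2 -0.58, limma adjusted p = 0.0253), a beta subunit that pairs with CNGA3 in the cone channel. With all libraries the changes of these channel subunits were 0.85 for CNGA3 ENSDARG00000012297, -0.51 for cngb3.2 and 0.40 for cngb3.1, the last 2 not called. The CNGA3 copy ENSDARG00000070726, also an alpha subunit gene, went the other way and was not called. It averaged 302 ± 81.6 at 40.5 µM, 382 ± 75.3 at 0.405 µM and 362 ± 52.5 at 0.0405 µM. GUCA1A ENSDARG00000100747 averaged 109 ± 31.4 in controls and 30.99 ± 30.03 at 40.5 µM, where replicate 3 stands apart as for KCNV2, and 16.5 ± 3.87 at 405 µM. The second GUCA1A gene, ENSDARG00000101567, averaged 34.9 ± 14.8, 60.6 ± 25.9 and 94.2 ± 45.2, the order of CNGA3. It was not called at 40.5 µM against the lower doses (log2 0.78, limma adjusted p = 0.433 with the block). At 405 µM against control it rose with the block (log2 1.42, limma adjusted p = 0.0297), the 1 cascade gene of 35 called higher there, while GUCA1A ENSDARG00000100747 (-2.62), guca1d (-2.41) and guca1g (-1.60) fell, against 0.327% of all genes called.

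**Figure D4:**
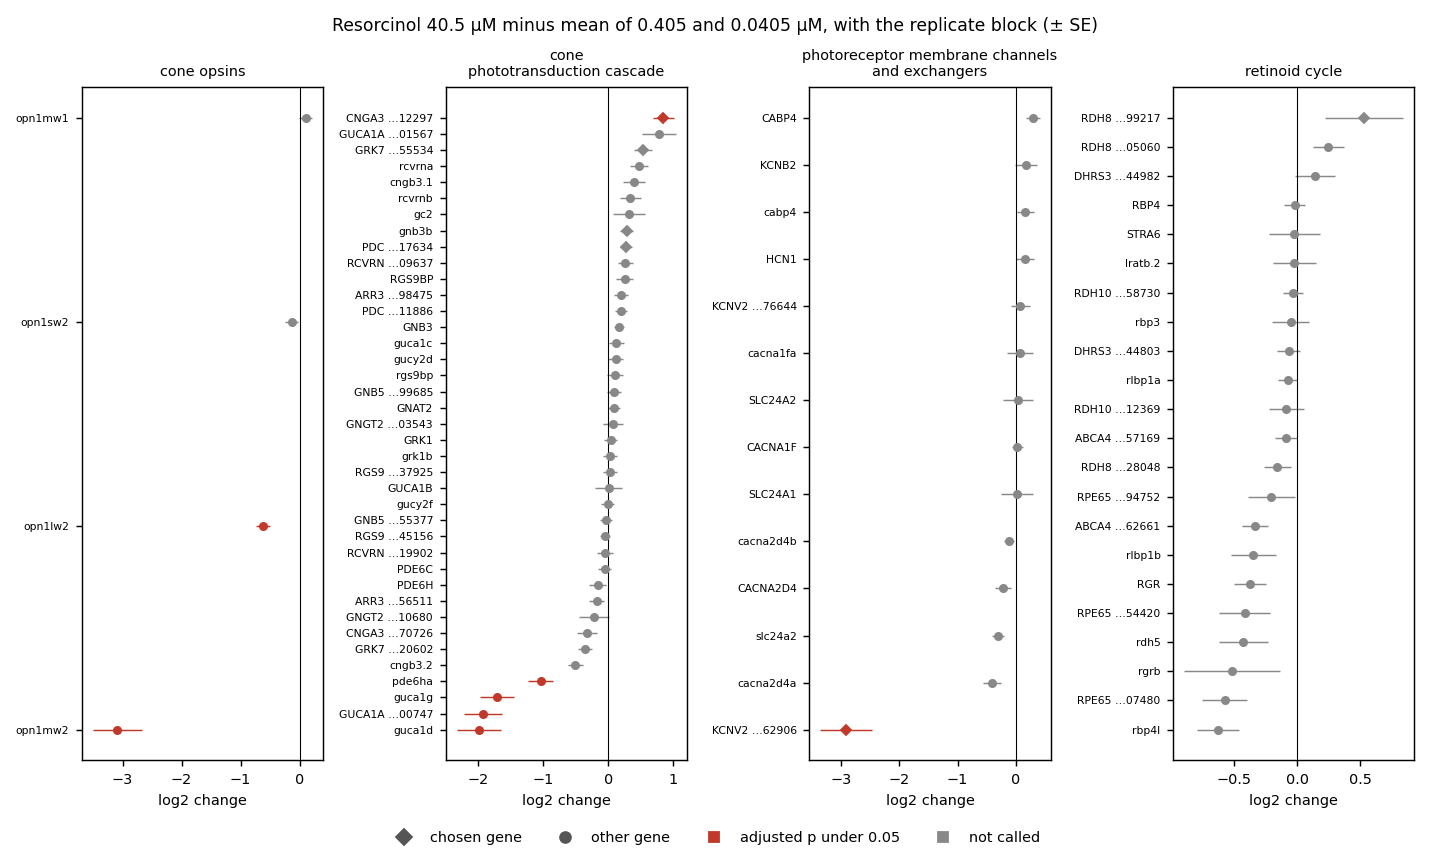
Change at 40.5 µM resorcinol from the mean of 0.405 and 0.0405 µM (x axes, log2 of normalized count + 1, a different range in each panel) for the genes of 4 lists, with bars of 1 SE from the fit with the replicate block. Diamonds mark the 6 chosen genes and red marks adjusted p under 0.05: CNGA3 lies highest and KCNV2 lowest in their panels, and opn1mw2 lies at -3.09.

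Of the 4 cone opsin genes tested, opn1mw2, a green opsin, fell by 3.09 on the log2 scale at 40.5 µM (limma adjusted p = 9.57e-04 with the block), and opn1lw2, a red opsin, fell by 0.62 with the block (limma adjusted p = 0.0157). opn1mw2 averaged 750 ± 315 in controls, 123 ± 146 at 40.5 µM and 88.9 ± 27.1 at 405 µM. Its change with the block was -3.70 without replicate 3 of 4.05 and 40.5 µM. Of the other 13 photoreceptor channel and exchanger genes, 0 were called by limma with or without the block, with a median of 0.04. Of the other 21 retinoid cycle genes 0 were called, with a median of -0.09 and 2 of 21 above 0. The share of all genes above 0 is not given here, so no shift is read from this count or that of the cascade list. Under 20.1 µM raloxifene limma called 0 of the 35 cascade genes, 0 of the 13 channel genes, 0 of the 21 retinoid genes and 0 of the 4 opsins, with or without the block, with medians of -0.11, 0.05, -0.07 and -0.23.

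Lists of marker genes of other cell types are given beside these results. Whole larvae were sequenced, so the tissue these RNAs came from was not resolved. At 40.5 µM against the lower doses, 0 of 15 rod genes, 0 of 4 pineal markers, 0 of 4 Müller glia markers and 0 of 7 pigment epithelium markers were called by limma, while 2 of 8 bipolar cell markers, cabp5a (log2 0.60) and cabp5b (0.39), rose with the block. Both also rose with the block at 405 µM against control (0.72 and 0.50). Of all genes, 0.204% were called with the block at 40.5 µM against the lower doses and 0.327% at 405 µM against control. Under 20.1 µM raloxifene, 1 of 7 pigment epithelium markers was called with the block, against 1.26% of all genes. It was pmelb, a melanosome protein gene, which fell by 0.56 on the log2 scale (limma adjusted p = 0.0232). The summed level of the 7 cone opsin genes was 7731 to 18315 in controls, 7508 to 9526 at 40.5 µM and 7893 to 15048 at 405 µM, so the groups overlapped. The summed level of the 65 lens genes was 17372 to 240410 in controls and 119330 to 247040 at 405 µM, and 50 of 52 tested lens genes had a log2 change above 0, with a median of 1.02 and 0 called by limma. At 40.5 µM against the lower doses the lens median was -0.17, with 9 of 52 above 0. No shift of the lens genes is read from these counts, as the share of all genes above 0 is not given. The part of the lens level, or of any marker list, in the values of the 6 genes at 405 µM was not tested.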

How the data were processed

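RNA from 60 pools of 20 whole larvae was sequenced from libraries of a stranded, poly(A)-selecting kit, per the labels' protocols. The authors deposited 1 table per compound of normalized counts, a signal that is never negative, in which reads per Ensembl gene are divided by 1 factor per library. The submitters' processing notes name GRCz11 and the tools cutadapt, STAR and DESeq2, without versions. No source used here names the counting tool or its strand setting. Dividing by the smallest step of a library gave whole reads for 100% of values, within 0.1 read.

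Gene names were taken from a table that matched 24960 of 27281 and 25126 of 27488 identifiers. For each compound, log2(normalized count + 1) of 30 libraries was fitted with 6 group means and an intensity trend (limma 3.58.1, R 4.3.3). Genes needed a normalized count of 10 in at least 5 libraries, which left 19241 and 19583. Benjamini-Hochberg adjustment ran over all of them. edgeR 4.0.16 and DESeq2 1.42.0 on recovered reads, a replicate block, no filter, a pseudocount of 10, quantile normalization, fits on the compared groups only and fits without single libraries were alternatives. edgeR and DESeq2 were run without the block only. The limma fit without the block was tested on simulated data that held no effect of the replicate number. The blocked fit, edgeR and DESeq2 were not tested in this way.

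All 75 same-number pairs of libraries per compound correlated in their deviations from the group means at over 0.1 (lowest 0.344 for raloxifene and 0.194 for resorcinol), so the numbers were taken to pair the libraries. The members and gene lists were chosen with earlier results of these data known. Named genes are the 6, genes of the same symbol, list genes called with or without the block, and the 3 genes most like each by the lower correlation over both tables. No genome or sequence was used here.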

Additional observations from a re-analysis of the deposited data

Results flagged for a closer look

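The 6 genes in 12 groups of 5 libraries gave 72 sets of 5 levels, and in 5 of them 1 level lay far from the other 4 by Dixon's ratio at the 95% level. Chance exceeds that level in about 1 of 20 sets, which is 3.6 of 72. KCNV2 in resorcinol 40.5 µM replicate 3 was at 55.8, with the others at 3.01 to 8.27. PDC in resorcinol control replicate 4 was at 3275, with the others at 1365 to 1645. RDH8 in resorcinol control replicate 1 was at 0, with the others at 14.8 to 20.3. CNGA3 in raloxifene control replicate 1 was at 183, with the others at 47.0 to 85.2, and replicate 1 was high for this gene at all raloxifene doses. gnb3b in raloxifene 0.201 µM replicate 4 was at 3764, with the others at 5697 to 6418, and the libraries numbered 4 were the lowest for this gene in all 6 raloxifene groups.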

How the results depend on the processing

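The number of the 6 genes called was 0 for every raloxifene dose under the alternatives run, of which edgeR and DESeq2 had no block. At resorcinol 405 µM against control it was 0, and went to 5 (all but KCNV2) with the replicate block and 1 (KCNV2) with DESeq2. In the blocked fits without 1 replicate number it ranged from 0 to 4, with KCNV2 called only without replicate 3. At 40.5 µM against control it was 0, and went to 1 (KCNV2) with the replicate block, in the blocked fit without replicate 3, without 40.5 µM replicate 3, and, chosen after seeing the data, without replicate 3 of both 4.05 and 40.5 µM (1 also with the block). At 40.5 µM against the lower doses it was 1, and went to 2 with the replicate block, 0 with edgeR, 0 to 2 without single replicates and 2 with the block and without replicate 3 of both doses. The pairing thus decided the call of CNGA3. The cause was not tested. A pseudocount of 10 moved the KCNV2 change there from -2.91 to -2.03. Under raloxifene 20.1 µM, changes near 0 turned sign. GRK7 went from -0.01 to 0.0494 with quantile normalization, to 0.0643 and 0.00397 in the blocked fits without replicates 1 and 4, and ranged from -0.139 to 0.190 without single libraries. gnb3b ranged from -0.281 to 0.0197 and RDH8 from -0.478 to 0.0139 without single libraries, and RDH8 was 0.0176 in the blocked fit without replicate 3. Of the alternatives for single changes and ratios, 1005 were classed as the same, 11 as reversed, 4 as stronger, 5 as weaker and 1 as moved. For raloxifene 20.1 µM, the ratios and the 40.5 µM contrast with the lower doses except KCNV2, same meant equal direction and side of the threshold. For the ratios the threshold was 0.05 on the permutation p, which is not read as a test. For the other resorcinol changes, same meant a shift of less than 1 SD, so a changed call could count as the same. RDH8 stood at 0 to 50.5 normalized counts per resorcinol library, and the part of depth in its calls was not tested.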
